A study of Mus musculus with 18 samples.

Results

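The 4 mature microRNAs (miRNAs) cut from the mir-22 and mir-31 hairpins, mmu-miR-22-3p, mmu-miR-22-5p, mmu-miR-31-5p and mmu-miR-31-3p (written below without the prefix for mouse), were followed through 18 small RNA libraries of mouse NIH/3T3 cells. They were found by name in the deposited table, where they fill 4 of 2045 rows and are 4 of 1907 mature miRNAs. NIH/3T3 is an established line of mouse embryonic fibroblasts. Small RNAs were sequenced either directly (input) or after an antibody pulldown (IP) of RNA carrying pseudouridine (Ψ), an isomer of uridine in which the base is joined to the sugar through carbon. The question was which miRNAs the antibody retains, and whether that depends on Pus1, which encodes an enzyme that converts uridine to Ψ.

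The groups were input and IP of wild-type cells (WT_input, WT_IP), of cells on day 3 of Pus1 knockdown (KD3_input, KD3_IP) and of cells on day 6 of it (KD6_input, KD6_IP). Each group had 3 libraries, named replicate A, B and C. Pus1 was knocked down with siRNA. No library of a control antibody was among those analysed here, so an IP to input ratio is a relative recovery and not a level of Ψ. Only miRNAs were counted, so Pus1 mRNA was not analysed here and how far it was depleted was not checked. Nothing in the labels says whether the replicates were separate cultures, so p-values measure the spread between these libraries, which may be technical.

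A miRNA hairpin is cut by Drosha in the nucleus and by Dicer in the cytoplasm into a short duplex, of which 1 strand, the guide, is kept in an Argonaute protein while the other, the passenger, is mostly lost. The guide pairs with target mRNAs through its seed, bases 2 to 8. miR-22-3p is the usual guide of its hairpin, is expressed in many tissues and has been studied most in heart and in tumours. miR-31-5p is the usual guide of the mir-31 hairpin and is known for its expression in fibroblasts and epithelia and for its opposite associations with tumour spread in different cancers.

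The mature sequences are shown because Ψ can only replace uridine, and the arms differ in how many uridines they carry. They are RefSeq entries on GRCm38.p6, 5′ to 3′, with the seed in capitals.
miR-22-3p: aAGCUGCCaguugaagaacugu
miR-22-5p: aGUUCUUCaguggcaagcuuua
miR-31-5p: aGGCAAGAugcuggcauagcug
miR-31-3p: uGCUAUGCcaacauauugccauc

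miR-22-3p had 5 uridines (22.7% of its bases) and its partner miR-22-5p had 8 (36.4%). miR-31-5p had 4 uridines (18.2%) and its partner miR-31-3p had 7 (30.4%). In both hairpins the guide was therefore the arm with fewer uridines, and both guides lay below the median of 27.3% over the 474 tested miRNAs with a sequence, where the quartiles were 22.3% and 34.9%. Only miR-31-3p began with a uridine. None of the 4 seeds occurred in another of the 1623 miRNAs of the table that have a RefSeq sequence.

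The mir-22 hairpin lies at chr11:75463716-75463810 on the plus strand, within exon 2 of the non-coding transcript Mir22hg and also within an exon of an isoform of Tlcd2. miR-22-5p covers chr11:75463734-75463755 and miR-22-3p covers chr11:75463772-75463793. The mir-31 hairpin lies at chr4:88910557-88910662 on the minus strand, within exon 3 of the long non-coding RNA AL805899.1. miR-31-5p covers chr4:88910614-88910635 and miR-31-3p covers chr4:88910577-88910599. The hairpins are printed with both arms in capitals, because the ratio of the arms from a single hairpin is compared below.
Mir22: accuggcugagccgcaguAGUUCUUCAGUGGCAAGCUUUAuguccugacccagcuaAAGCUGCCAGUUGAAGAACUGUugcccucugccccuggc
Mir31: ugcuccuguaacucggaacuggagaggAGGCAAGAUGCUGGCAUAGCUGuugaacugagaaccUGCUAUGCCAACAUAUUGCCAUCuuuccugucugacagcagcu
In each hairpin the longest perfectly complementary stretch between the arms was 9 bases, UGAAGAACU with AGUUCUUCA in mir-22 and UGGCAUAGC with GCUAUGCCA in mir-31.

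Depth was between 3989031 and 15099781 mapped reads in 17 libraries and 241109 in the remaining one, replicate A of KD6_input. The share of reads assigned to no miRNA was lowest in WT_input (group mean 5.60%) and highest in KD3_IP (32.4%). The 18 miRNAs listed as typical of fibroblasts and mesenchyme summed to between 527119 and 678908 in every 1000000 miRNA reads of the inputs. Much of that sum was miR-21a-5p alone (median 359423), and the lowest of the list was miR-23b-3p (median 168). Of 15 miRNAs typical of other cell types, 13 stayed under 5 on the same scale in every input, and the exceptions were the neuronal miR-9-5p (median 1096) and the hepatocyte miR-122-5p (median 30.8). Counting intervals given below cover counting error only, because PCR copies of a molecule could not be told from separate molecules.

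In input, miR-22-3p was the most abundant of the 4 arms and miR-22-5p the least. Levels are given as counts in every 1000000 reads of the 547 tested miRNAs after TMM scaling (CPM). They were not divided by length, since the arms are 22 or 23 bases long. Mean input levels of miR-22-3p were 6671 ± 2128 CPM in WT, 6500 ± 952 in KD3 and 4964 ± 2210 in KD6 (SD, n = 3). By rank among the miRNAs of a library, miR-22-3p stood on average 18.3rd in WT_input, miR-31-5p 41.3rd, miR-31-3p 138th and miR-22-5p 190th. The 4 arms together made up 0.854% ± 0.19 of miRNA reads in WT_input and 0.0855% ± 0.0041 in WT_IP (SD, n = 3).

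All 4 arms fell in the IP in all 3 conditions. In WT, miR-22-3p was 12.1-fold lower in IP than in input, miR-31-3p 9.63-fold, miR-31-5p 9.13-fold and miR-22-5p 2.99-fold. Leaving out any 1 of the WT_input libraries gave smaller folds, of 6.355 to 8.72 for miR-22-3p, 5.90 to 6.27 for miR-31-3p, 5.58 to 5.98 for miR-31-5p and 1.80 to 1.95 for miR-22-5p, all past the threshold given next, while the median log2 ratio of all miRNAs moved to between 0.41 and 0.505. In each condition, 4 of 4 arms passed the threshold in the downward direction (edgeR quasi-likelihood test, Benjamini-Hochberg adjusted p under 0.05), beside 39.3% of the 547 miRNAs tested in WT, 39.3% in KD3 and 37.8% in KD6. For 4 of 4 arms every IP library lay below every input library, beside 43.7% of miRNAs in WT, 44.2% in KD3 and 26.3% in KD6. Lower levels in IP were thus common among these miRNAs. The median log2 ratio of IP to input over all tested miRNAs was -0.30 in WT, again -0.30 in KD3, and -0.32 in KD6.

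The guide miR-22-3p measured 4707, 6373 and 8932 CPM in replicates A, B and C of WT_input and 518, 520 and 620 CPM in those of WT_IP. In KD3 it measured 5466, 6695 and 7340 CPM in input and 467, 689 and 479 CPM in IP. In KD6 it measured 3261, 4170 and 7461 CPM in input and 203, 264 and 340 CPM in IP. The 9 input values stood clear of the 9 IP values, and all 3 KD6_IP libraries lay below the other 6 IP libraries. The KD6_IP libraries of miR-31-5p did so too, and how many of all miRNAs did was not counted. The IP to input ratio of miR-22-3p did not pass for a change from WT to KD6 (edgeR adjusted p = 0.416). The log2 ratio of IP to input was -3.59 ± 0.31 in WT (SE, edgeR adjusted p = 3.02e-09), -3.58 ± 0.31 in KD3 (adjusted p = 3.07e-09) and -4.21 ± 0.32 in KD6 (adjusted p = 3.35e-10). Counted from the lowest ratio, miR-22-3p was the 68th of 547 miRNAs in WT, the 76th in KD3 and the 74th in KD6.

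Its passenger miR-22-5p measured 47.7, 56.4 and 49.9 CPM in WT_input and 15.3, 18.1 and 17.99 CPM in WT_IP. In KD3 it measured 73.8, 63.1 and 65.9 CPM in input and 21.5, 12.0 and 10.7 CPM in IP. In KD6 it measured 36.6, 47.8 and 33.2 CPM in input and 16.5, 20.2 and 11.2 CPM in IP. Inputs and IPs again did not overlap, but the distance between them was the smallest of the 4 arms. The log2 ratio was -1.58 ± 0.27 in WT (SE, edgeR adjusted p = 2.92e-05), -2.22 ± 0.28 in KD3 (adjusted p = 7.17e-07) and -1.35 ± 0.29 in KD6 (adjusted p = 3.43e-04). It was the 183rd of 547 from the lowest in WT, the 140th in KD3 and the 196th in KD6. This arm rests on few reads, with 9.1 estimated counts in replicate A of KD6_input (95% Poisson interval 4.12 to 17.1 for a count of 9). The KD6 call was lost without replicate B of KD6_input, with a log2 ratio of -0.70 and an edgeR adjusted p of 0.115, and with only the KD6 libraries fitted, with a log2 ratio of -0.84 and an adjusted p of 0.0837. In these fits the median log2 ratio of all miRNAs was 0.35 and 0.26, beside -0.32 in the main fit. Against the medians this arm was at -1.05 and -1.10, beside -1.03 in the main fit.

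The guide miR-31-5p measured 2523, 2780 and 2955 CPM in WT_input and 295, 303 and 307 CPM in WT_IP. In KD3 it measured 2319, 2491 and 2502 CPM in input and 337, 259 and 452 CPM in IP. In KD6 it measured 741, 3016 and 4231 CPM in input and 99.6, 120 and 253 CPM in IP. Replicates of WT and of KD3_input were close to each other, whereas KD6_input ranged widely, with the low value in its shallow replicate A. The log2 ratio was -3.19 ± 0.43 in WT (SE, edgeR adjusted p = 1.59e-06), -2.80 ± 0.42 in KD3 (adjusted p = 7.50e-06) and -4.08 ± 0.45 in KD6 (adjusted p = 8.80e-08). The KD6 ratio was -4.72 without replicate A of KD6_input, -3.09 without replicate C of KD6_input and -4.99 without replicate C of KD6_IP. Among the 547 miRNAs it was the 88th from the lowest in WT, the 106th in KD3 and the 76th in KD6.

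The passenger miR-31-3p measured 149, 161 and 143 CPM in WT_input and 25.045, 13.5 and 9.15 CPM in WT_IP. In KD3 it measured 158, 129 and 168 CPM in input and 15.4, 8.03 and 9.20 CPM in IP. In KD6 it measured 110, 92.2 and 145 CPM in input and 13.9, 7.18 and 7.19 CPM in IP. In each of the 3 IP groups replicate A was the highest, and the lowest input value of this arm stood well above its highest IP value. The log2 ratio was -3.27 ± 0.34 in WT (SE, edgeR adjusted p = 4.94e-08), -3.81 ± 0.36 in KD3 (adjusted p = 1.24e-08) and -3.64 ± 0.37 in KD6 (adjusted p = 2.71e-08). It was the 83rd, the 70th and the 86th of 547 from the lowest in WT, KD3 and KD6. Its lowest count was 16.0, in replicate B of KD6_IP (95% Poisson interval 9.15 to 26.0).

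**Figure D1:**
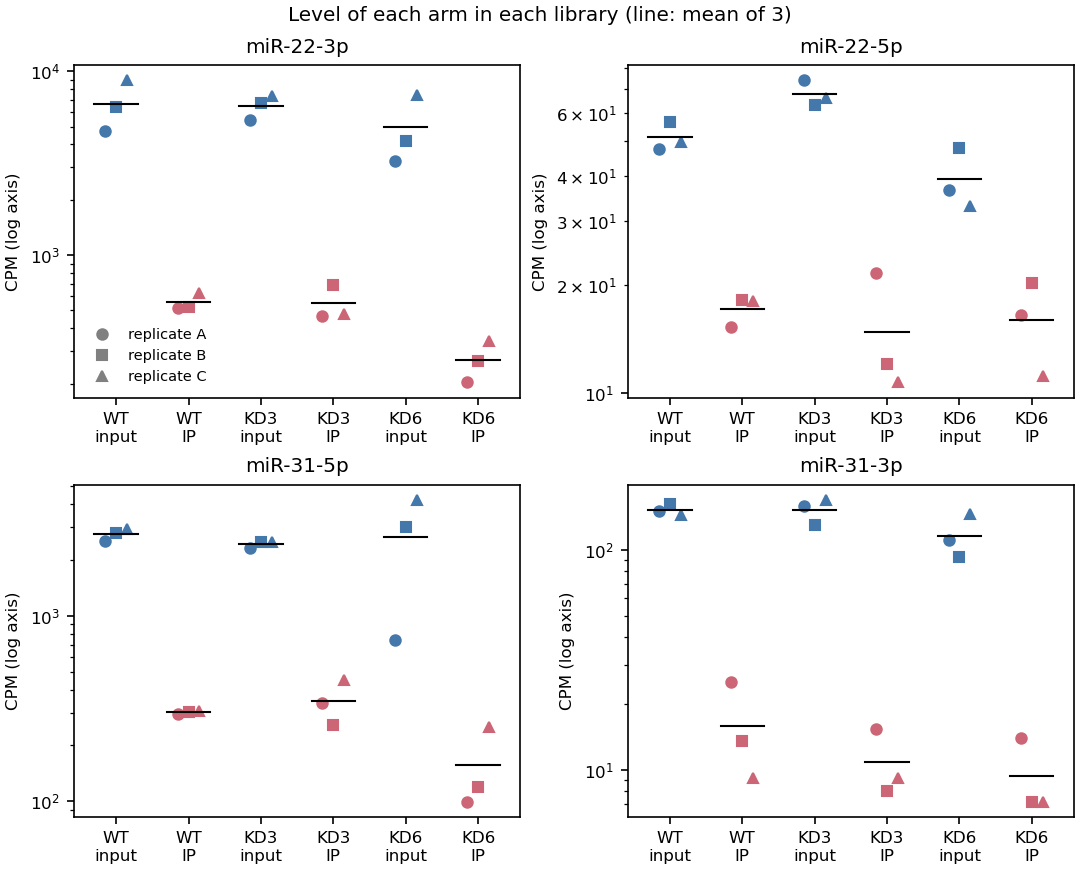
Level of each arm in CPM (log axis) in the 18 libraries, with inputs in blue, IPs in red, replicates A, B and C as circles, squares and triangles, and the mean of 3 as a line. For every arm and condition the 3 IP libraries lie below the 3 input libraries, and for miR-31-5p replicate A of KD6_input, at 741 CPM, stands below the other inputs.

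Because other scalings moved the median of all miRNAs, the ratios were also read against that median. In WT, the log2 ratio minus that median was -3.29 for miR-22-3p, -2.97 for miR-31-3p, -2.89 for miR-31-5p and -1.28 for miR-22-5p. Leaving out any 1 of the WT_input libraries, these differences were -3.56 to -3.17, -3.15 to -2.97, -3.02 to -2.93 and -1.45 to -1.26 in the same order. Under the other settings with all WT libraries kept, which moved the WT median to between -0.38 and 0.32, the ratio of miR-22-3p in WT stayed between -3.80 and -2.97 and that of miR-22-5p between -1.80 and -0.96. Without 1 of the WT_input libraries the ratio of miR-22-3p reached -2.67 and that of miR-22-5p reached -0.85. In KD3, leaving out 1 input library gave log2 ratios of -3.16 to -2.93 for miR-22-3p, -1.685 to -1.57 for miR-22-5p, -2.26 to -2.18 for miR-31-5p and -3.34 to -3.13 for miR-31-3p, with the median of all miRNAs at 0.32 to 0.39. In KD6, the ratio of miR-22-3p was -3.44 without replicate C of the input and -4.87 without replicate C of the IP, and that of miR-31-3p was -3.03 without replicate C of the input and -4.31 without replicate A of the IP. All of these stayed past the threshold. As a share of all mapped reads, miR-22-3p went from 5579 in every 1000000 in WT_input to 442 in WT_IP.

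**Figure D2:**
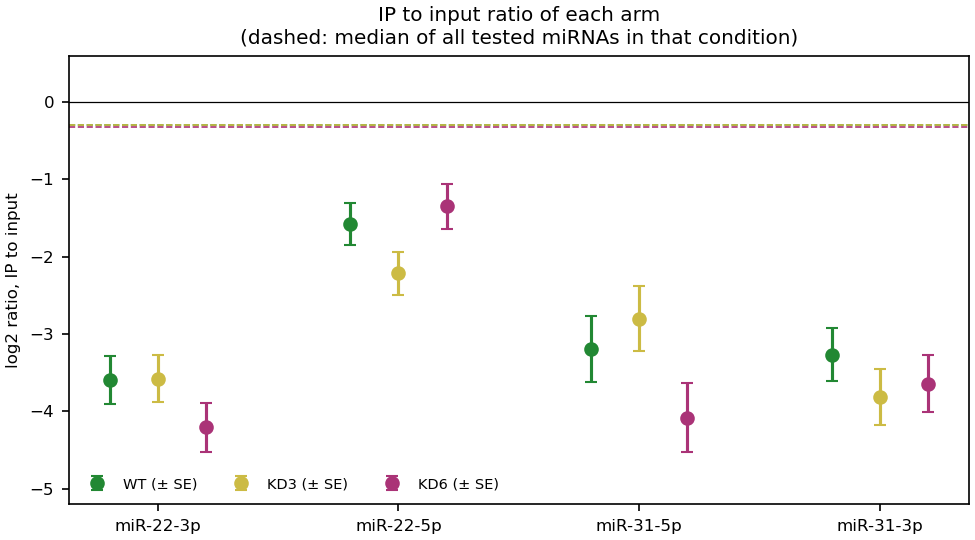
Log2 ratio of IP to input for each arm in WT, KD3 and KD6 (points, bars ± SE from edgeR), with the median of all 547 miRNAs as dashed lines. All ratios are below those medians, and the miR-22-5p ratios, from -2.22 to -1.35, are the closest to them.

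**Figure D3:**
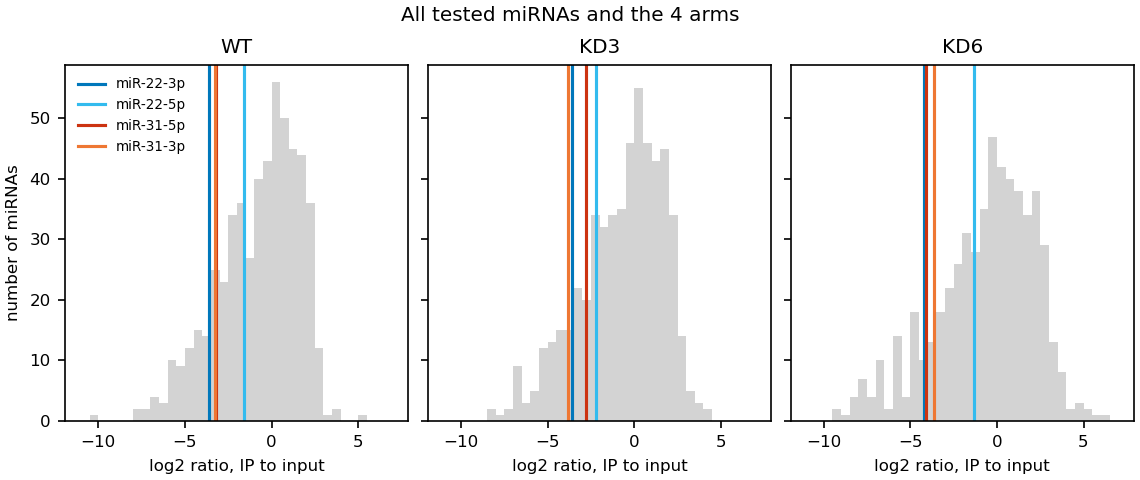
Histograms of the log2 ratio of IP to input over the 547 tested miRNAs in WT, KD3 and KD6, with the 4 arms as vertical lines. miR-22-3p, miR-31-5p and miR-31-3p sit on the lower side of the distribution and miR-22-5p nearer its middle.

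The arms of mir-22 did not fall alike. In WT_input, 98.8, 113 and 179 reads of miR-22-3p were counted for each read of miR-22-5p in replicates A, B and C, and in WT_IP 33.3, 28.6 and 34.2. In KD3 the ratios were 74.1, 106 and 111 in input and 21.7, 56.4 and 44.8 in IP. In KD6 they were 83.5, 87.2 and 225 in input and 12.2, 13.0 and 30.3 in IP. Every IP library lay below every input library of its condition, which held for 35.2% of the 142 hairpins with both arms tested in WT, 34.5% in KD3 and 24.6% in KD6. The log2 ratio of 3p to 5p was lower in IP by 1.98 ± 0.46 in WT (SE, limma adjusted p = 0.00138), by 1.33 ± 0.46 in KD3 (adjusted p = 0.0181) and by 2.81 ± 0.46 in KD6 (adjusted p = 4.53e-05). The shares of hairpins that passed in this direction were 29.6% in WT, 27.5% in KD3 and 28.2% in KD6. The ratio of arms within a library does not depend on how libraries are scaled to each other.

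The KD3 difference of mir-22 was the least firm of these, and rested on individual libraries. It did not pass without replicate A of KD3_IP (-0.93, limma adjusted p = 0.111), without replicate B of KD3_input (-1.26, adjusted p = 0.0554) or without replicate C of KD3_input (-1.22, adjusted p = 0.0633). Pooled over conditions, the log2 ratio of the mir-22 arms was lower by 2.04 in IP (two-sided exact permutation within condition, p = 0.00025, adjusted p = 0.0005 over 2 hairpins, n = 9 libraries per side). That p is the smallest the permutations can give, and within a single condition 3 libraries against 3 cannot go below 0.1.

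For mir-31 a difference between the arms was not shown. miR-31-5p outnumbered miR-31-3p by 16.9, 17.3 and 20.7 to 1 in WT_input and by 11.7, 22.3 and 33.2 to 1 in WT_IP. The ratios were 14.6, 19.4 and 14.9 to 1 in KD3_input and 21.7, 31.6 and 48.7 to 1 in KD3_IP. They were 6.64, 32.7 and 29.3 to 1 in KD6_input and 7.06, 16.2 and 34.7 to 1 in KD6_IP. Input and IP overlapped in WT and KD6, while in KD3 the IP libraries all lay on the side of miR-31-5p. On the log2 scale of 3p to 5p, IP minus input was -0.17 ± 0.59 in WT (SE, limma adjusted p = 0.824), -0.99 ± 0.59 in KD3 (adjusted p = 0.160) and 0.22 ± 0.59 in KD6 (adjusted p = 0.743). Pooled over conditions it was -0.31 (two-sided exact permutation, p = 0.412, n = 9 per side). Whether mir-22 and mir-31 differ from each other in this respect was not tested.

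**Figure D4:**
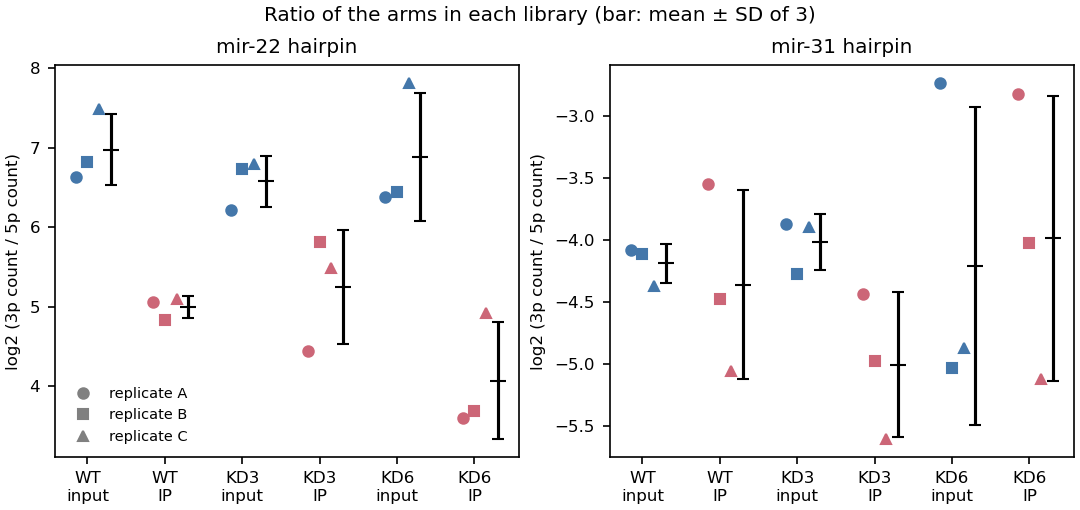
Log2 ratio of the 3p to the 5p count of mir-22 (left) and mir-31 (right) in each library, with inputs in blue, IPs in red and the mean ± SD of 3 as black bars. For mir-22 each IP group lies below its input, with input means of 6.98 (WT), 6.58 (KD3) and 6.88 (KD6) against IP means of 5.00, 5.25 and 4.07, while for mir-31 input and IP overlap in WT and KD6.

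Knockdown of Pus1 was not seen to change the IP to input ratio of any of the 4 arms. From WT to KD3, 0 of 4 arms passed, beside 0% of the 547 miRNAs. By edgeR or by DESeq2, 0 of 4 had an unadjusted p under 0.05, beside 15 of the 547 by edgeR. From WT to KD6, 0 of 4 arms passed by either tool, beside 0% of all miRNAs by edgeR. An unadjusted p under 0.05 was found for 0 of 4, beside 98 of the 547 by edgeR. From KD3 to KD6, 0 of 4 passed by either tool, beside 0.183% of all miRNAs by edgeR. Here 2 had an unadjusted p under 0.05, beside 102 of the 547 by edgeR. Over all miRNAs DESeq2 called 0 changes from WT to KD3, 39 from WT to KD6 and 32 from KD3 to KD6. DESeq2 used its own filter, so these counts are not out of the 547 miRNAs tested by edgeR.

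Of the 4 arms, miR-31-5p had the lowest value in both steps to KD6. Its ratio changed by 0.39 ± 0.56 on the log2 scale from WT to KD3 (SE, edgeR adjusted p over 547 miRNAs = 0.9998), by -0.89 ± 0.56 from WT to KD6 (adjusted p = 0.405) and by -1.28 ± 0.56 from KD3 to KD6 (adjusted p = 0.226). Single libraries weighed on these values. Without replicate A of KD6_input the step from KD3 to KD6 was -1.78 (edgeR adjusted p = 0.0369) and that from WT to KD6 was -1.45 (adjusted p = 0.103). Without replicate C of KD6_IP they were -2.05 (adjusted p = 0.0192) and -1.75 (adjusted p = 0.0364). Without replicate C of KD6_input they were -0.88 (adjusted p = 0.443) and -0.56 (adjusted p = 0.666).

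For miR-22-3p the change was 0.02 ± 0.39 from WT to KD3, -0.61 ± 0.40 from WT to KD6 and -0.63 ± 0.40 from KD3 to KD6 (edgeR adjusted p = 0.9998, 0.416 and 0.393). miR-22-5p, the passenger, had values of the other sign, -0.64 ± 0.38, 0.23 ± 0.39 and 0.87 ± 0.40 (adjusted p = 0.9998, 0.808 and 0.241). miR-31-3p had -0.54 ± 0.47, -0.37 ± 0.48 and 0.17 ± 0.49 (adjusted p = 0.9998, 0.740 and 0.892). With 1 library left out, the change of miR-22-3p from WT to KD6 ran from -1.23 without replicate C of KD6_IP (edgeR adjusted p = 0.0509) to -0.51 without replicate C of KD6_input, and that from KD3 to KD6 from -1.14 to -0.40 without the same libraries. The change of miR-22-5p then ran from -1.10 to -0.52 from WT to KD3 and from 0.49 to 1.13 from KD3 to KD6, and that of miR-31-3p from -0.97 to -0.16 and, from WT to KD6, from -1.02 to -0.23. The 3 changes share libraries and are not independent of each other. Standard errors for the arms ran from 0.38 to 0.56, so changes no larger than these were within the error. Somewhat larger ones were not resolved either, such as that of miR-22-3p from KD3 to KD6 (edgeR unadjusted p = 0.126). In that step, an unadjusted p under 0.05 was found for miR-22-5p (0.87 ± 0.40, edgeR unadjusted p = 0.0406) and miR-31-5p (-1.28 ± 0.56, unadjusted p = 0.0335). Their edgeR adjusted p values, 0.241 and 0.226, did not pass the threshold.

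The 3p to 5p ratios were not seen to change in their IP to input difference either. For mir-22 the change was 0.65 ± 0.65 from WT to KD3, -0.83 ± 0.65 from WT to KD6 and -1.48 ± 0.65 from KD3 to KD6 (limma adjusted p = 0.961, 0.765 and 0.326). For mir-31 it was -0.82 ± 0.83, 0.40 ± 0.83 and 1.22 ± 0.83 (adjusted p = 0.961, 0.892 and 0.524). Thus 0 of 2 hairpins passed in each, beside 0%, 0% and 0.704% of the 142 hairpins. Of these 6 values the mir-22 step from KD3 to KD6 had an unadjusted p of 0.0347 (limma). In that step 20 of the 142 hairpins were under 0.05.

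**Figure D5:**
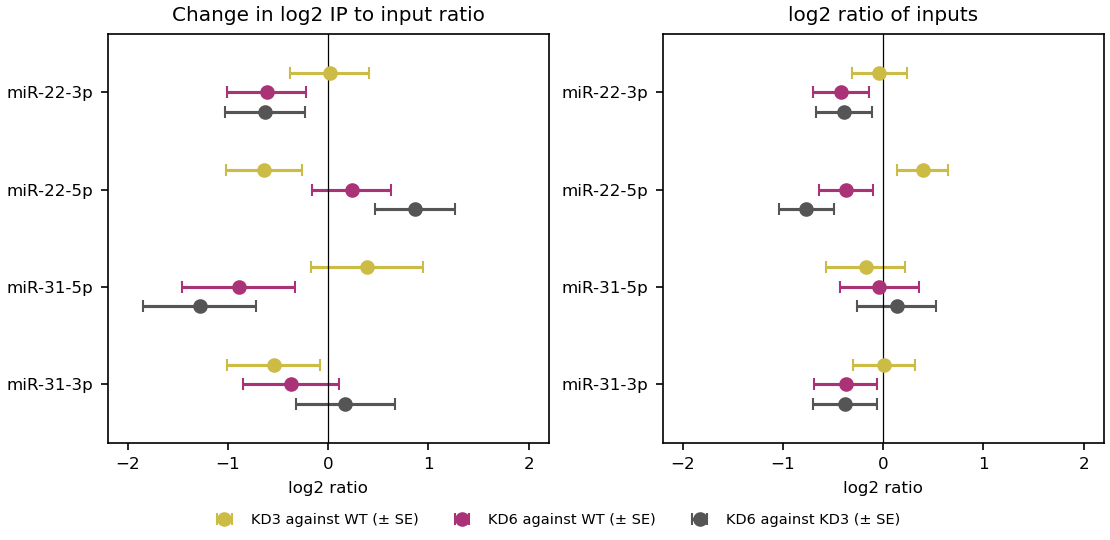
Change of the log2 IP to input ratio between conditions (left) and log2 ratio between inputs (right) for each arm, as points with bars of ± SE from edgeR. No value passed the adjusted threshold, and the widest excursions are miR-31-5p from KD3 to KD6 on the left (-1.28) and miR-22-5p from KD3 to KD6 on the right (-0.77).

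Input levels of the 4 arms did not pass the test between conditions. In these bulk libraries, fewer cells with a miRNA and less of it per cell cannot be told apart. From WT_input to KD3_input 0 of 4 arms passed, beside 0.366% of all miRNAs, from WT_input to KD6_input 0 of 4, beside 4.57%, and from KD3_input to KD6_input 0 of 4, beside 6.40% (edgeR). DESeq2 also gave 0 of 4 in each, and over all miRNAs with its own filter it called 13, 30 and 33 in the same order. By both tools 1 arm had an unadjusted p under 0.05, from KD3_input to KD6_input. By edgeR 101 of the 547 miRNAs were under 0.05 there. The arm with that p was miR-22-5p, whose 3 KD6_input libraries all lay below the 3 KD3_input libraries. Its log2 ratio was -0.77 ± 0.27 (SE, edgeR unadjusted p = 0.0106, adjusted p = 0.114). Its KD3_input libraries also all lay above those of WT_input, with a log2 ratio of 0.40 ± 0.25 (adjusted p = 0.861), which passed when only these 6 libraries were fitted (0.42, adjusted p = 0.0309). From WT_input to KD6_input it was at -0.37 ± 0.27 (adjusted p = 0.540). How many of all miRNAs had input groups apart in this way was not counted.

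The other 3 arms were read in the same way. miR-22-3p was at -0.04 ± 0.28 from WT to KD3, -0.42 ± 0.28 from WT to KD6 and -0.39 ± 0.28 from KD3 to KD6 on the log2 scale (SE, edgeR adjusted p = 0.975, 0.490 and 0.512). miR-31-3p was at 0.01 ± 0.31, -0.37 ± 0.32 and -0.38 ± 0.32 (adjusted p = 0.991, 0.616 and 0.560). miR-31-5p was at -0.18 ± 0.39, -0.04 ± 0.39 and 0.14 ± 0.39 (adjusted p = 0.945, 0.983 and 0.898). Its 3 KD3_input libraries all lay below those of WT_input, a gap whose share among all miRNAs was not counted. Without replicate A of KD6_input the last value of miR-31-5p was 0.66 (adjusted p = 0.228). The 3p to 5p ratio in input passed for 0 of 2 hairpins in each pair, beside 0% for KD3 against WT, 0% for KD6 against WT and 0.704% for KD6 against KD3 (limma), and none of the 6 values had an unadjusted p under 0.05.

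Ordered by mean level, the 3 inputs came before the 3 IPs for every arm, and the lowest input group did not overlap the highest IP group. For miR-22-3p the order was WT_input, KD3_input, KD6_input, WT_IP, KD3_IP and KD6_IP, where neighbours overlapped except at the step from input to IP and at the last step. For miR-31-5p it was WT_input, KD6_input, KD3_input, KD3_IP, WT_IP and KD6_IP, with the same exceptions. For miR-22-5p it began with KD3_input, which stood clear of WT_input, and the 3 IP groups overlapped. For miR-31-3p neighbours overlapped except at the step from input to IP. Shares of all miRNAs with such gaps among inputs or among IPs were not counted.

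The number of distinct read sequences assigned to an arm was lower in IP as well. miR-22-3p had 292 to 350 distinct sequences in WT_input and 62.9 to 89.4 in WT_IP, where fractions come from reads shared between loci. miR-31-5p had 350 to 392 and 69.5 to 96.5, more than miR-22-3p in both groups although it had fewer reads. miR-31-3p had 78.2 to 87.0 and 11 to 13.2, and miR-22-5p had 21.6 to 31.7 and 6.0 to 11.5. Mapped reads per distinct sequence were 194 ± 53.8 for miR-22-3p and 70.0 ± 8.49 for miR-31-5p in WT_input, and 37.7 ± 6.05 and 18.02 ± 1.86 in WT_IP (SD, n = 3). These numbers rise with depth, so they were not tested, and in the shallow replicate A of KD6_input miR-22-5p had 2.1 distinct sequences.

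Among the 18 fibroblast and mesenchymal miRNAs, 3 rose and 12 fell in WT_IP, with a median log2 ratio of -1.42 beside 26.1% and 39.3% of all miRNAs and their median of -0.30. In KD3, 3 rose and 11 fell (median -1.46), beside 26.0% and 39.3%, and in KD6, 3 rose and 10 fell (median -1.47), beside 30.5% and 37.8%. The lowest in WT were miR-30a-5p at -4.85 ± 0.18 and miR-199a-5p at -4.03 ± 0.27, and the highest were miR-10b-5p at 1.40 ± 0.16 and miR-26a-5p at 1.05 ± 0.23 (SE). The WT ratios of all 4 arms thus lay between these extremes and below the median of the list. In KD6 miR-22-5p, at -1.35, lay above the list median of -1.47.

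The miRNAs whose log2 CPM followed the members most closely over the 18 libraries, among 149 with a mean of at least 100 CPM, were described without a test. For miR-22-3p they were miR-872-5p (Pearson r = 0.987), miR-322-5p (0.984) and miR-99a-5p (0.982). For miR-31-5p they were miR-652-3p (0.982), miR-322-5p (0.980) and miR-17-5p (0.980). For miR-22-5p they were miR-24-3p (0.961), miR-532-5p (0.956) and miR-214-5p (0.956), and for miR-31-3p miR-199b-5p (0.975), miR-214-5p (0.973) and miR-30a-5p (0.973). These points share libraries, depth and the large step from input to IP, so any miRNA that fell strongly in the IP scores high. Their log2 ratios of IP to input in WT ran from -4.91 (miR-199b-5p) to -2.00 (miR-24-3p).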

How the data were processed

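Size-selected small RNA from NIH/3T3 cells was sequenced as input or Ψ IP. The authors ran the reads through SeqImp with mm10, Ensembl and miRBase annotation, and deposited estimated counts of mapped reads and of distinct sequences per miRNA locus, not normalized, with a read of several loci divided among them (47.0% of non-zero values were not whole). They tested counts with DESeq2. Here each miRNA was represented by its row with most reads, and the total row, which names no miRNA, was left out. The share of reads outside miRNA rows is given in the report. Counts were rounded, then tested with edgeR 4.0.16 under R 4.3.3 (TMM with replicate A of WT_IP as reference, filterByExpr, glmQLFit and glmQLFTest, 6 group means over 18 libraries, 547 miRNAs). Each SE was the size of an estimate over the root of its F statistic. Arm ratios, log2((3p + 0.5)/(5p + 0.5)), were tested with limma 3.58.1 over 142 hairpins and by exact permutation in Python 3.11.15. Adjustment was by Benjamini-Hochberg, with a threshold of 0.05 in all 9 contrasts. Procedures were tested on simulated data. Sequences came from RefSeq (GRCm38.p6), with 4 of 4 members matched, and annotation from GENCODE on GRCm38. Coordinates are 1-based.

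Members, lists and tests were chosen with earlier results of these data known. Named miRNAs were the 4 members, the 3 others most correlated with each in log2 CPM, and the 2 highest and 2 lowest fibroblast miRNAs. Replicate letters were checked by the correlation of deviations from group means over 197 miRNAs. Every same-letter pair exceeded 0.1 between the KD3 and WT inputs (0.22 to 0.59) and between the KD6 and KD3 inputs (0.24 to 0.32). This pairing comes from the values, since no label gives one. It did not hold throughout, with replicate B at 0.078 between the KD6 and WT inputs. Same-letter pairs of IP and input ran from -0.23 to 0.48, and those of WT were negative (-0.19 to -0.02). Alternatives were other scalings (RLE, library size, total mapped reads) and filters, summed or all rows, replicate blocks, only the libraries compared, DESeq2 1.42.0, other settings of the arm test, each library left out, and, chosen after seeing the data, replicate A of KD6_input as TMM reference.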

Additional observations from a re-analysis of the deposited data

How the results depend on the processing

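The log2 ratio of IP to input stayed negative for the 4 arms in all 216 alternatives, and 214 of these kept the threshold. The exceptions were miR-22-5p in KD6 with only the libraries compared (-0.84) and without 1 library (range -1.82 to -0.70). No replicate block, by letter or by IP and input pair, changed a call: with the letter as a block, miR-22-3p in WT was at -3.55. The mir-22 arm ratio passed under all alternatives in WT and KD6, and in KD3 ranged from -1.62 to -0.93 with 1 library left out.

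Changes between conditions were less stable. With no abundance filter miR-31-5p passed from KD3 to KD6 (-1.55) and from WT to KD6 (-1.13), and miR-22-3p passed from KD3 to KD6 (-0.96). With total mapped reads as library size miR-22-3p passed from WT to KD6 (-1.39). There the median change of all miRNAs was -0.56, beside 0.19 in the main fit. Against these medians miR-22-3p was at -0.83 and, in the main fit, at -0.81. Fitted on the compared inputs only, miR-22-5p passed from WT to KD3 (0.42). With 1 library left out, miR-31-5p ranged from -2.05 to -0.88 from KD3 to KD6 and from -1.745 to -0.56 from WT to KD6. Over all miRNAs, the calls for a change were 0 to 51 from WT to KD6 and 0 to 32 from KD3 to KD6 under the settings, against 0 and 1, and up to 37 and 46 with 1 library left out. For a change from WT to KD3 they were 0 to 1. Input calls were 0 to 74 (KD3 against WT), 13 to 30 (KD6 against WT) and 9 to 33 (KD6 against KD3), against 2, 25 and 35, and at least 0, 0 and 1 with 1 library left out. For arm ratios, leaving out 1 library gave up to 10 hairpins from WT to KD6 and 9 from KD3 to KD6, against 0 and 1.

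Signs turned in 83 alternatives, none past the threshold. The change of miR-22-3p from WT to KD3 (0.02) was -0.13 with replicate A of KD6_input as TMM reference, -0.12 with all rows, -0.029 with a mean of at least 10 counts, -0.039 and -0.0081 with the pair and the letter as replicate block and -0.21 with total mapped reads. The change of miR-22-5p from WT to KD6 (0.23) was -0.38 with library size alone, -0.022 with no filter and -0.52 with total mapped reads. Against the median of all miRNAs in each fit it was 0.038, 0.024 and 0.040, beside 0.039 in the main fit. The change of miR-31-3p from KD3 to KD6 (0.17) was -0.019 with all rows, -0.52 with library size alone, -0.0026 with at least 10 counts, -0.18 with no filter and -0.44 with total mapped reads. In inputs from WT to KD3, miR-22-3p (-0.04) was 0.0001 with all rows, 0.049 with no filter and 0.0008 with only these libraries. miR-31-3p (0.01) was -0.011 with the KD6_input reference, -0.080 with library size alone, -0.0089 with the letter as replicate block, -0.10 with rows summed and -0.14 with total mapped reads. From WT to KD6, miR-31-5p (-0.04) was 0.043 with DESeq2, 0.050 with RLE, 0.11 with the KD6_input reference, 0.094 with all rows, 0.23 with library size alone, 0.11 with at least 10 counts, 0.19 with no filter, 0.076 with only these libraries and 0.17 with total mapped reads. From KD3 to KD6 it (0.14) was -0.0094 with the letter as replicate block.

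With 1 library left out, signs also turned in the change of miR-22-3p from WT to KD3 (-0.38 to 0.075), of miR-22-5p from WT to KD6 (-0.18 to 0.22), of miR-31-3p from KD3 to KD6 (-0.37 to 0.29) and of the mir-31 arm ratio from WT to KD6 (-0.19 to 1.14). They turned in the mir-31 arm ratio of IP to input in WT (-0.58 to 0.18) and KD6 (-0.36 to 0.96). In inputs, miR-22-3p ranged from -0.24 to 0.22 (KD3 against WT), -0.49 to 0.074 (KD6 against WT) and -0.45 to 0.029 (KD6 against KD3), and miR-31-3p from -0.10 to 0.11, -0.30 to 0.10 and -0.30 to 0.10. miR-31-5p ranged from -0.33 to 0.51 (KD6 against WT) and -0.14 to 0.66 (KD6 against KD3), and miR-22-5p from -0.33 to 0.017 (KD6 against WT). The input arm ratio of mir-22 ranged from -0.56 to 0.16 (KD6 against WT) and -0.16 to 0.55 (KD6 against KD3), and that of mir-31 from -0.76 to 0.39 and -0.94 to 0.21. The cause of these shifts was not tested. The lowest counts of a member were 9.1 for miR-22-5p in replicate A of KD6_input and 16.0 for miR-31-3p in replicate B of KD6_IP.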
